A study of Mus musculus with 8 samples.

Results

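Ligands of the inhibitory receptors carried by T cells, natural killer cells and macrophages were followed in mouse mammary carcinoma cells. The set holds 10 genes taken by name: Cd274, Pdcd1lg2, Cd80, Cd276, Vtcn1, Pvr, Nectin2, Tnfrsf14, Lgals9 and Cd47. No threshold on a measured value picked them, but earlier results of these data were known when they were chosen. Each symbol matched 1 gene ID, so 10 of 10 were found among the 53379 genes counted. The series profiled RNA of 4 tumour-derived cell lines that are described as breast cancer models associated with the epithelial-mesenchymal transition. Every line was on the C57BL/6 background and grew attached as a monolayer in DMEM/F12 medium with 5% adult bovine serum, with no further treatment named. The lines 687g and Epcam hi came from the MMTV-PyMT-Snail-IRES-YFP reporter model, and pB3 and pB2 came from the MMTV-PyMT model. In both models the MMTV promoter directs the polyoma middle T oncogene to mammary epithelium. Each group is a single line with 2 libraries, so a difference between groups is a difference between individual lines. The labels do not tell whether the paired libraries are separate cultures, and p-values therefore measure only the spread between these libraries, which may be technical. The contrasts set 687g against Epcam hi and pB3 against pB2 within a mouse model, and 687g against pB3, pB3 against Epcam hi, 687g against pB2 and Epcam hi against pB2 across models.

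Immune checkpoints are receptor and ligand pairs that dampen an immune response. A tumour cell can display ligands such as PD-L1, which engages PD-1 on T cells, CD155, which engages TIGIT on T and natural killer cells, and CD47, which engages SIRPα on macrophages and restrains phagocytosis. Several of these ligands are known to rise in tumour cells exposed to interferon gamma, through JAK kinases and IRF1, and blocking antibodies against some of the pairs are used to treat cancer.

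The promoter windows of Cd274, Nectin2 and Lgals9 are printed here because Cd274 and Nectin2 had the same order of levels across the lines and Lgals9 had another. The windows are those of RefSeq on GRCm38.p6 and run from 250 bases before to 50 bases after the annotated start, 5′ to 3′ on the strand of the gene. Capitals mark matches, on either strand, to the interferon-stimulated response element (TTTC, any 2 bases, TTTC), the gamma-activated site TTCNNNGAA or the E-box CAGGTG, which is CACCTG when read on the other strand.
Cd274 window, chr19:29367188-29367487, plus strand: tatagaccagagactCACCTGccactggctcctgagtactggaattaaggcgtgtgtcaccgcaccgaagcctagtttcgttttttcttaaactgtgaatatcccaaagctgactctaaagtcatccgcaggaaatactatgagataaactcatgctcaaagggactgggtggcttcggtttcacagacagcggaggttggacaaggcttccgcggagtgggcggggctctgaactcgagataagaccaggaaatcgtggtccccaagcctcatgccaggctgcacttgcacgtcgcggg
Nectin2 window, chr7:19749524-19749823, minus strand: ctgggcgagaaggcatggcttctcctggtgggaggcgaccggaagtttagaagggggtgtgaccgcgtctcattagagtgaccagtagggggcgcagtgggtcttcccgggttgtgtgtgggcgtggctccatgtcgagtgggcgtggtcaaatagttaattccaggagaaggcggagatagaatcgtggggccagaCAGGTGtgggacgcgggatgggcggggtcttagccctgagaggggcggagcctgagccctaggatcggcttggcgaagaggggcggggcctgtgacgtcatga
Lgals9 window, chr11:78984875-78985174, minus strand: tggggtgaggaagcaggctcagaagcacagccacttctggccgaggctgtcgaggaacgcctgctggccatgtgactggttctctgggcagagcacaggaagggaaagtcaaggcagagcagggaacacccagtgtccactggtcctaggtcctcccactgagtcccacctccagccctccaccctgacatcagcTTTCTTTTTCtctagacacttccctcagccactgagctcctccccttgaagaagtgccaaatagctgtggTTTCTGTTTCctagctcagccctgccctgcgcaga

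The Cd274 window held 1 E-box match, 235 bases before the start, and the Nectin2 window held 1 E-box match, 53 bases before the start. The Lgals9 window held 2 matches to the interferon-stimulated response element, 55 bases before and 15 bases after the start. Among the other members, the Tnfrsf14 window held 1 match to that element, 64 bases before its start. Windows were at hand for 9 of the 10 members (10 windows, with 2 for Cd47), and none of the 10 windows held the gamma-activated site. Of 32851 RefSeq promoter windows of the same length, 3.44% held the interferon-stimulated response element, 8.3% the gamma-activated site and 20.2% the E-box. Windows of 1 chromosome, which holds no member, were left out of these shares. The NF-kB motif (GGG, any 5 bases, CC), searched on both strands, was in 50.8% of the same 32851 windows and in those of Pdcd1lg2, Cd276, Nectin2, Lgals9, Cd80 and Tnfrsf14. NF-kB matches are left in lower case, and none of them overlapped the capitals of the printed windows. A match is a description of letters and does not show that a factor binds.

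Total counts ranged from 12442730 to 19149916 per library, and 0.375% to 1.9% of them fell on mitochondrial genes. The paired libraries of a line correlated with r of 0.986 in 687g, 0.993 in pB3, 0.976 in Epcam hi and 0.992 in pB2 over the tested genes, and in Epcam hi 13.4% of those genes differed more than 2-fold between the 2 libraries, against 2.96% to 6.32% in the other lines. Krt8 and Krt18, keratins of simple epithelia, were at 94.3 CPM or more in every library. Epcam, an epithelial adhesion protein, had 3.85 and 3.7 CPM in 687g, against 264.4 CPM or more in every library of the other lines, so the carcinoma label rests on keratins alone in 687g. Vim, the intermediate filament of mesenchymal cells, had 2310 to 3388 CPM in the 687g and pB3 libraries and 13.8 to 32.5 CPM in the Epcam hi and pB2 libraries. Of 20 leukocyte markers, 17 stayed under 1 CPM in every library, 7 had no count in any, and the pan-leukocyte gene Ptprc reached 0.383 CPM at most. The exceptions were Cd14 at 30.7 to 108.1 CPM, Cd68 at 0.518 to 35.5 CPM and Csf1r at up to 2.79 CPM, and the list summed to 0.269 to 2.79 CPM without Cd14 and Cd68. All 6 endothelial markers stayed under 1 CPM.

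**Figure D1:**
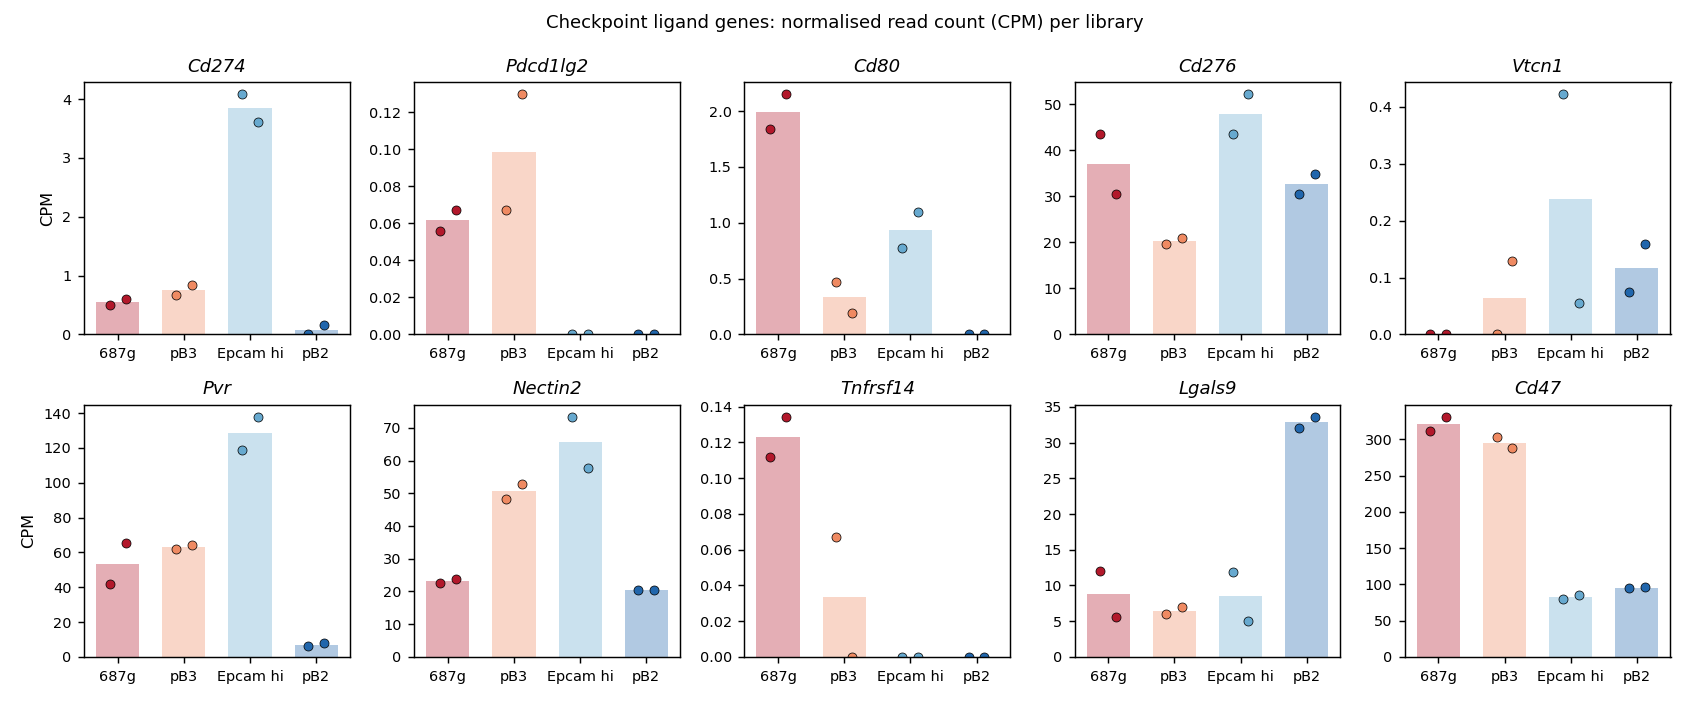
Normalised read count in CPM (counts scaled to the TMM-adjusted library total, vertical axes from 0, a separate scale for each gene) of the 10 checkpoint ligand genes in the lines 687g, pB3, Epcam hi and pB2; points are libraries and bars their mean. Cd47 stands at 287.5 CPM or more in 687g and pB3 and at 96.1 CPM or less in Epcam hi and pB2, Pvr and Cd274 peak in Epcam hi, and Lgals9 peaks in pB2.

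Messages of 5 of the 10 genes (Cd47, Pvr, Nectin2, Cd276 and Lgals9) were counted at 5 CPM or more in all 8 libraries. Cd274 and Cd80 stayed under 5 CPM in every library, and Pdcd1lg2, Vtcn1 and Tnfrsf14 had at most 6 counts in any library and failed the filter on low counts. Levels of different genes are compared as CPM per kilobase of exon, which takes out the length of the message. On that scale Cd47 led in 687g at 51.2 and in pB3 at 47.0 CPM per kb, Pvr led in Epcam hi at 21.0 CPM per kb, and Lgals9 led in pB2 at 15.4 CPM per kb with Cd47 next at 15.2 CPM per kb. The Cd274 message averaged 0.153 CPM per kb in 687g, 0.209 in pB3, 1.06 in Epcam hi and 0.022 in pB2, so that in every line it lay below each of the 5 genes counted throughout.

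**Figure D2:**
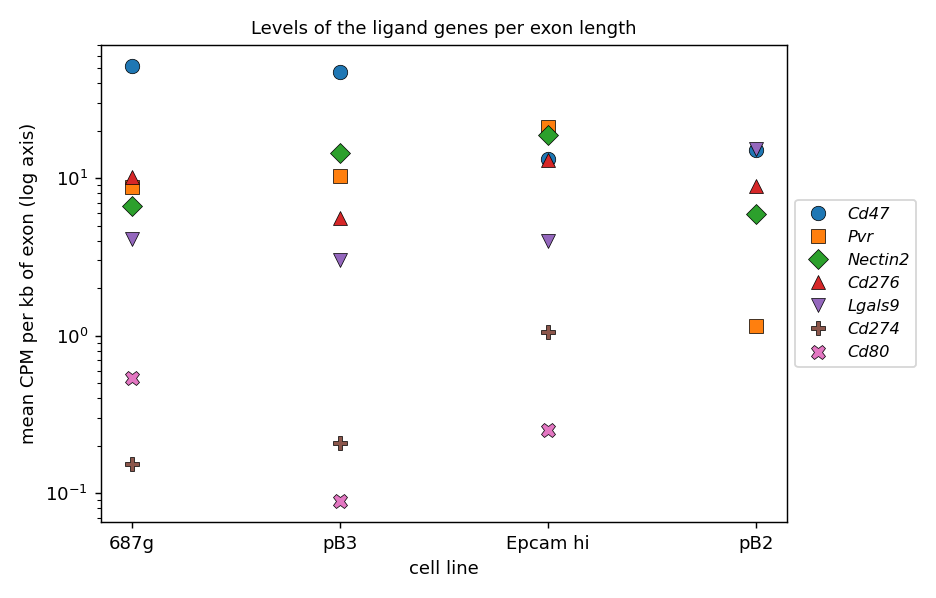
Mean level per exon length (CPM per kb, log axis) of the 7 checkpoint ligand genes that passed the count filter, in the lines 687g, pB3, Epcam hi and pB2; each symbol is the mean of 2 libraries. Lines with 3 counts or fewer have no symbol: in pB2, Cd80 had 0 counts and Cd274 had 3 (0.022 CPM per kb).

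Cd274, on chromosome 19 (29367455 to 29388095, plus strand, GRCm38), encodes PD-L1, a ligand of PD-1. It had 0.502 and 0.605 CPM in 687g, 0.672 and 0.842 CPM in pB3, 4.08 and 3.61 CPM in Epcam hi, and 0 and 0.159 CPM in pB2. Epcam hi stood above every other library, pB2 below every other, and 687g and pB3 lay close together without overlapping. The level of 687g was 0.145 times that of Epcam hi (log2 fold change -2.78 ± 0.55, SE as throughout, edgeR quasi-likelihood test, adjusted p = 0.00119). It was also lower in pB3 than in Epcam hi (log2 fold change -2.33 ± 0.53, edgeR adjusted p = 0.00435), a call that was lost without the library pB3 replicate 1 (adjusted p = 0.0645; range over the alternatives 0.000158 to 0.0645).

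Against pB2 the Cd274 counts are few: 23 reads in pB3 and 3 in pB2 gave a ratio of 8.18 on TMM-scaled totals with an exact 95% counting interval of 2.47 to 42.6. The 124 reads in Epcam hi gave a ratio to pB2 of 41.2 (13.8 to 202.4). The 18 reads of 687g gave a ratio to pB2 of 5.92 (1.73 to 31.4). The edgeR test called Cd274 higher in pB3 than in pB2 (adjusted p = 0.0072), in Epcam hi than in pB2 (2.62e-05) and in 687g than in pB2 (0.019). Cd274 passed the count filter through pB3 and Epcam hi, so its calls in contrasts with these lines are not independent of having been tested. Without the library pB2 replicate 1, which has no Cd274 count, the adjusted p was 0.0622 for pB3 (range over the alternatives 0.000846 to 0.0622) and 0.124 for 687g (range 0.00745 to 0.124), and without 687g replicate 2 it was 0.0645 for 687g. Between 687g and pB3 the test made no call (log2 fold change -0.45, 95% interval -1.74 to 0.84). The macrophage marker Cd68 was also highest in Epcam hi, at 35.5 and 13.4 CPM, against 0.518 to 1.81 CPM in the libraries of the other lines, while Ptprc had 0.141 and 0.383 CPM in Epcam hi; their part in the Cd274 level was not tested. In RNA from whole cultures, a few cells with much of a message cannot be told apart from many cells with little. Counting intervals here and below cover counting error only, and floors cover only that of the line with no read.

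Pdcd1lg2, on the same strand of chromosome 19 (29410919 to 29471161), encodes PD-L2, the other ligand of PD-1. It had 1 read in each 687g library, 1 and 2 reads in pB3, and no read in Epcam hi or pB2. A count of 0 over both libraries allows a level of up to 0.0923 CPM in Epcam hi and up to 0.0927 CPM in pB2. No line could be set apart from another for Pdcd1lg2 at this depth.

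Cd80 (chromosome 16, 38455561 to 38496335, plus strand) encodes B7-1, which binds CD28 and the inhibitory receptor CTLA-4 and can also bind PD-L1 on the same cell. It had 1.84 and 2.15 CPM in 687g, 0.471 and 0.194 CPM in pB3, 0.774 and 1.09 CPM in Epcam hi, and no read in either pB2 library. The lines did not overlap in any pair, and 687g was the highest. Cd80 passed the count filter through 687g and Epcam hi, so its calls in contrasts with these lines are not independent of having been tested. The folds against pB2 use a floor, whereas the adjusted p-values beside them come from the edgeR fit. Set against a floor of 3 reads over the 2 pB2 libraries, Cd80 was 21.4-fold higher in 687g (edgeR adjusted p = 4.4e-05). On the same floor it was 3.56-fold higher in pB3 (edgeR adjusted p = 0.00634) and 10.3-fold higher in Epcam hi (adjusted p = 0.000322). The pB3 call was lost without pB2 replicate 2 (adjusted p = 0.0538) or pB3 replicate 1 (0.0501), in a range over the alternatives of 0.00104 to 0.0538. Cd80 was higher in 687g than in pB3 (log2 fold change 2.56 ± 0.60, edgeR adjusted p = 0.00661), and that call was lost without pB3 replicate 2 (adjusted p = 0.108, range over the alternatives 0.000624 to 0.108). Without pB3 replicate 1 the log2 fold change was 3.31. The tests of 687g against Epcam hi (log2 fold change 1.08, 95% interval -0.06 to 2.21, edgeR adjusted p = 0.132) and of pB3 against Epcam hi (-1.49, -2.83 to -0.14, adjusted p = 0.0965) made no call.

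Cd276 (chromosome 9, 58524298 to 58555437, minus strand) encodes B7-H3, a B7 family protein found on many carcinomas whose receptor on T cells is not settled. It had 43.6 and 30.5 CPM in 687g, 19.7 and 20.9 CPM in pB3, 43.4 and 52.1 CPM in Epcam hi, and 30.6 and 34.8 CPM in pB2. Only pB3 stood apart from all other libraries, on the low side, and the 687g libraries straddled those of pB2. Cd276 was lower in pB3 than in Epcam hi (log2 fold change -1.24 ± 0.21, edgeR adjusted p = 0.000495) and lower in pB3 than in pB2 (-0.69 ± 0.21, adjusted p = 0.0158). It was higher in 687g than in pB3 (log2 fold change 0.87 ± 0.21, edgeR adjusted p = 0.00702). The pB3 against pB2 call was lost without pB2 replicate 2 (adjusted p = 0.109) or either pB3 library (0.12 and 0.0798), in a range over the alternatives of 0.000224 to 0.12. The 687g against pB3 call was lost without either pB3 library or without 687g replicate 1, in a range of 0.00147 to 0.0812. The small excess of Epcam hi over pB2 (log2 fold change 0.55 ± 0.21, edgeR adjusted p = 0.0397) was lost in 10 of 16 alternatives, DESeq2 among them. The 687g against Epcam hi difference was not called (log2 fold change -0.37, 95% interval -0.81 to 0.08, edgeR adjusted p = 0.187), though it was without 687g replicate 1 (-0.65, adjusted p = 0.0306; range over the alternatives 0.0306 to 0.65).

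Vtcn1 (chromosome 3, 100825459 to 100896922, plus strand) encodes B7-H4, another B7 protein that restrains T cells and is known in breast carcinoma. It had no read in 687g, 0 and 2 reads in pB3, 6 and 1 reads in Epcam hi, and 1 and 3 reads in pB2. With no read in 687g against 7 in Epcam hi, the floor of 3 reads put 687g 2.36-fold lower. That fold leaves out the counting error of the 7 reads. Of those 7 reads, 6 came from 1 library. With 2 reads in pB3 against 7 in Epcam hi, the ratio of Epcam hi to pB3 was 3.27 with a counting interval of 0.622 to 32.2. The libraries of Epcam hi overlapped those of pB3 and pB2, and Vtcn1 was not tested.

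Pvr and Nectin2 lie near each other on the minus strand of chromosome 7 (Pvr 19903578 to 19921160, Nectin2 19716644 to 19750483) and encode CD155 and CD112. Both are adhesion proteins of the nectin family that bind the activating receptor CD226, and CD155 is also the main ligand of the inhibitory receptor TIGIT and binds CD96. Pvr had 42.0 and 65.2 CPM in 687g, 62.1 and 64.0 CPM in pB3, 118.7 and 137.9 CPM in Epcam hi, and 6.15 and 7.85 CPM in pB2. Epcam hi was above and pB2 below every other library, and the 687g libraries enclosed those of pB3. Relative to pB2, pB3 had more Pvr (log2 fold change 3.16 ± 0.25, 8.95-fold, edgeR adjusted p = 1.57e-07), and 687g had less than Epcam hi (-1.26 ± 0.22, adjusted p = 0.00044). Across the models it was higher in Epcam hi than in pB2 (log2 fold change 4.19 ± 0.25, 18.2-fold, edgeR adjusted p = 1.1e-08) and in 687g than in pB2 (2.93 ± 0.24, adjusted p = 2.4e-07), and lower in pB3 than in Epcam hi (-1.03 ± 0.22, adjusted p = 0.00261). The test of 687g against pB3 made no call (log2 fold change -0.24, 95% interval -0.70 to 0.23).

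Nectin2 had 22.7 and 23.9 CPM in 687g, 48.3 and 52.9 CPM in pB3, 73.4 and 57.7 CPM in Epcam hi, and 20.5 and 20.6 CPM in pB2. The lines fell into a lower pair, 687g and pB2, and an upper pair, Epcam hi and pB3, and within neither pair was a difference called. Nectin2 was higher in pB3 than in pB2 (log2 fold change 1.30 ± 0.19, edgeR adjusted p = 6.17e-05) and lower in 687g than in Epcam hi (-1.49 ± 0.19, adjusted p = 2.42e-05). It was also lower in 687g than in pB3 (log2 fold change -1.12 ± 0.19, edgeR adjusted p = 0.000458) and higher in Epcam hi than in pB2 (1.67 ± 0.19, adjusted p = 5.19e-06). The interval of the difference was -0.22 to 0.59 for 687g against pB2 and -0.76 to 0.02 for pB3 against Epcam hi, on the log2 scale. Pvr and Nectin2 had the same order of mean levels over the lines as Cd274 (Epcam hi, pB3, 687g, pB2), but the order of 687g and pB2 for Nectin2 turned with total counts in place of TMM factors (-0.06), and that of 687g and pB3 for Pvr turned without 687g replicate 1 (0.05). Nectin2 shares exon bases with the opposite-strand gene Gm20512, and Cd276 with Gm10657; the submitters' notes state that counting was stranded.

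Tnfrsf14 (chromosome 4, 154921933 to 154928563, minus strand) encodes HVEM, the ligand of the inhibitory receptor BTLA and a receptor itself for the TNF family protein LIGHT. It had 2 reads in each 687g library, 1 and 0 reads in pB3, and no read in Epcam hi or pB2, so it was barely detected in any line. The ratio of 687g to pB3 was 3.70 with a counting interval of 0.366 to 182.1, which includes no difference.

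Lgals9 (chromosome 11, 78962974 to 78984946, minus strand) encodes galectin-9, a sugar-binding protein that binds TIM-3. It had 12.1 and 5.58 CPM in 687g, 5.98 and 6.93 CPM in pB3, 11.9 and 5.09 CPM in Epcam hi, and 32.1 and 33.6 CPM in pB2. Both pB2 libraries stood above all others, and the remaining 3 lines overlapped, with more than 2-fold between the libraries within 687g and within Epcam hi. Lgals9 was lower in pB3 than in pB2 (log2 fold change -2.35 ± 0.38, edgeR adjusted p = 0.000175), in Epcam hi than in pB2 (-1.97 ± 0.37, adjusted p = 0.000554) and in 687g than in pB2 (-1.89 ± 0.37, adjusted p = 0.000669). The last 2 values were -2.69 without Epcam hi replicate 1 and -2.56 without 687g replicate 1. Between 687g and Epcam hi the fitted difference was 0.08 on the log2 scale with a 95% interval of -0.73 to 0.89, a span that leaves differences of over 1.5-fold either way undecided, and its sign turned when totals replaced TMM factors (-0.05). The myeloid marker Cd14 was likewise highest in pB2, at 108.1 and 102.3 CPM, against 30.7 to 65.9 CPM in the libraries of the other lines; its part in the Lgals9 level was not tested, and Ptprc had no read in pB2.

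Cd47 (chromosome 16, 49800533 to 49915010, plus strand) encodes the ligand of SIRPα that macrophages read as a signal not to engulf a cell. It had 312.0 and 331.1 CPM in 687g, 302.9 and 287.5 CPM in pB3, 79.8 and 85.8 CPM in Epcam hi, and 94.4 and 96.1 CPM in pB2. The libraries formed 2 levels with a wide gap, 687g and pB3 above and Epcam hi and pB2 below. Cd47 was higher in 687g than in Epcam hi (log2 fold change 1.96 ± 0.17, 3.88-fold, edgeR adjusted p = 5.56e-07) and in pB3 than in pB2 (1.63 ± 0.17, 3.10-fold, adjusted p = 2.26e-06). It was also higher in pB3 than in Epcam hi (log2 fold change 1.83 ± 0.17, edgeR adjusted p = 1.62e-06) and in 687g than in pB2 (1.75 ± 0.17, adjusted p = 9e-07). Inside each level no difference was called, with a 95% interval of -0.22 to 0.47 for 687g against pB3 and of -0.55 to 0.15 for Epcam hi against pB2. The upper level held the same lines as the high Vim libraries, and of the 7 tested members Cd47 was the only one whose mean CPM was higher in both of those lines than in both others.

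**Figure D3:**
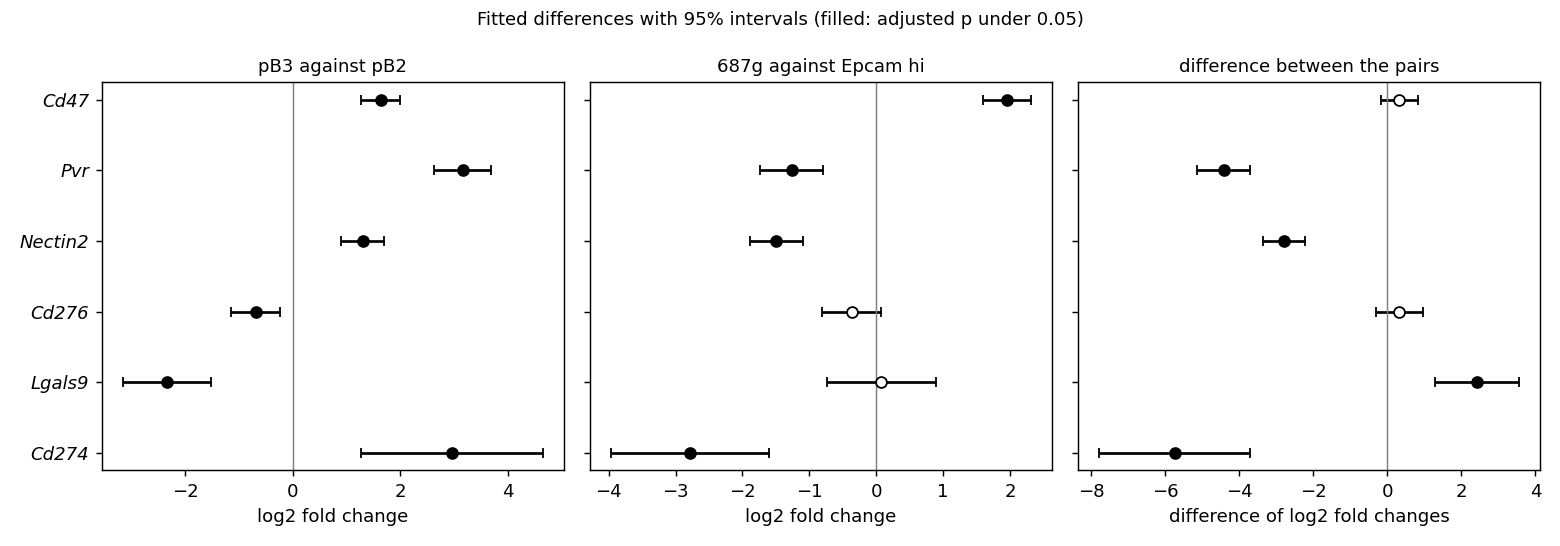
Fitted log2 fold changes (horizontal axes) of 6 checkpoint ligand genes in pB3 against pB2, in 687g against Epcam hi, and their difference; bars are 95% intervals and filled points have an adjusted p under 0.05. Cd47 lies right of 0 in both pairs, whereas Pvr, Nectin2 and Cd274 lie right of 0 in pB3 against pB2 and left of 0 in 687g against Epcam hi; the fitted Cd274 value against pB2 rests on 3 pB2 reads and depends on the prior count.

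In pB3 against pB2, 5 of the 10 members were called higher (Cd47, Pvr, Nectin2, Cd274 and Cd80), where 21.6% of all 15890 tested genes were, and 2 lower (Cd276 and Lgals9), where 23.2% were. The remaining 3 were not tested, and 44.8% of all tested genes were called either way. With total counts in place of TMM factors, 2766 genes were called higher and 4591 lower in that contrast, against 3427 higher and 3689 lower with TMM, while the direction of every called member stayed. In 687g against Epcam hi, 1 member was called higher (Cd47), beside 18.4% of all tested genes, 3 lower (Pvr, Nectin2 and Cd274), beside 18%, and 3 were tested without a call; 36.4% of all tested genes were called either way. Cd274 passed the filter through pB3 and Epcam hi, and Cd80 through 687g and Epcam hi, so their calls in contrasts with these lines are not independent of having been tested. In 687g against pB3, 2 members were called higher (Cd276 and Cd80), beside 12.8% of all tested genes, and 1 lower (Nectin2), beside 12.9%, with 25.8% either way; without pB3 replicate 2 only 1 member was called. In pB3 against Epcam hi, 1 was called higher (Cd47), beside 14.8%, and 3 lower (Cd274, Cd276 and Pvr), beside 14.6%, with 29.4% either way. In 687g against pB2, 4 were called higher (Pvr, Cd47, Cd80 and Cd274), beside 25.6%, and 1 lower (Lgals9), beside 26.7%, with 52.3% either way. With total counts the split of all called genes moved there to 3163 higher and 5289 lower, against 4060 higher and 4249 lower. In Epcam hi against pB2, 5 were called higher (Pvr, Nectin2, Cd274, Cd80 and Cd276), beside 25.8%, and 1 lower (Lgals9), beside 25.6%, with 51.4% either way. These contrasts share libraries, so their counts are not independent of each other. A test of any difference among the 4 lines called all 7 tested members, beside 66.5% of all tested genes.

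The pairs of the same mouse model were set against each other by testing the difference of their log2 fold changes, 687g against Epcam hi minus pB3 against pB2. It was called for 5 of the 7 tested members, beside 37.7% of all tested genes, with 1 above 0, beside 18.2%, and 4 below 0, beside 19.5%. The other 3 of the 10 members were not tested. Pvr differed by -4.42 ± 0.33 (edgeR adjusted p = 1.36e-07) and Nectin2 by -2.79 ± 0.26 (adjusted p = 1.56e-06), each with a positive change in pB3 against pB2 and a negative one in 687g against Epcam hi. Cd274 differed by -5.74 ± 0.95 (edgeR adjusted p = 0.000268), a fitted size that depends on the 3 pB2 reads. Lgals9 differed by 2.42 ± 0.53 (edgeR adjusted p = 0.00243), being lower in pB3 than in pB2 with no call in the other pair. Its value was 3.15 without Epcam hi replicate 1 and 1.76 without 687g replicate 1. The Cd80 difference of -4.36 ± 1.57 (edgeR adjusted p = 0.0439) rests on 0 reads in pB2, and it was not called with DESeq2 (adjusted p = 0.116), with a replicate block (0.0625) or when any 1 of 6 libraries was left out, in a range over the alternatives of 0.0345 to 0.174. For Cd47 the difference between the pairs was 0.33 with a 95% interval of -0.17 to 0.82, and for Cd276 it was 0.32 (-0.31 to 0.96), and neither was called.

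Of 13 receptor genes of these and related ligands, 7 passed the count filter in these tumour cell cultures. Pdcd1, Ctla4, Cd226 and Cd160 had at most 1 read in any library. Tigit, the inhibitory receptor of CD155, had 16.7 and 19.2 CPM in 687g, 28.0 and 31.8 CPM in pB3, 35.3 and 27.4 CPM in Epcam hi, and 0.148 and 0.318 CPM in pB2. It was thus counted in the 3 lines with more Pvr and nearly absent in pB2 (pB3 against pB2 log2 fold change 6.88 ± 0.35, edgeR adjusted p = 2.45e-09, and 7.58 without pB2 replicate 2). The lower Tigit level in 687g than in Epcam hi (log2 fold change -0.80 ± 0.21, edgeR adjusted p = 0.0094) lost its call without Epcam hi replicate 1 (adjusted p = 0.0601, the highest over the alternatives). Havcr2, which encodes TIM-3, the receptor of galectin-9, had 39.0 and 42.7 CPM in 687g, 1.95 and 1.94 CPM in pB3, 13.5 and 18.3 CPM in Epcam hi, and 0 and 0.053 CPM in pB2, the line with most Lgals9. Havcr2 was higher in 687g than in Epcam hi (log2 fold change 1.36 ± 0.22, edgeR adjusted p = 0.000298). Btla, the receptor of HVEM, had no read in 687g, pB3 or Epcam hi and 4.89 and 5.99 CPM in pB2. With a floor of 3 reads in pB3, the Btla level of pB2 was 55.9-fold higher. Among the receptor genes chosen after their values were seen, Icos had 3.46 and 3.43 CPM in 687g and no read elsewhere, and Sirpa, the receptor of CD47, had 0 and 0.134 CPM in 687g, 9.48 and 9.13 CPM in pB3, 0.0703 and 0.0547 CPM in Epcam hi, and 5.33 and 4.56 CPM in pB2. The leukocyte marker list without Cd14 and Cd68 summed to 2.79 and 1.01 CPM in 687g, 0.269 and 0.907 CPM in pB3, 0.985 and 1.20 CPM in Epcam hi, and 0.444 and 0.530 CPM in pB2, and its part in the receptor counts was not tested.

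**Figure D4:**
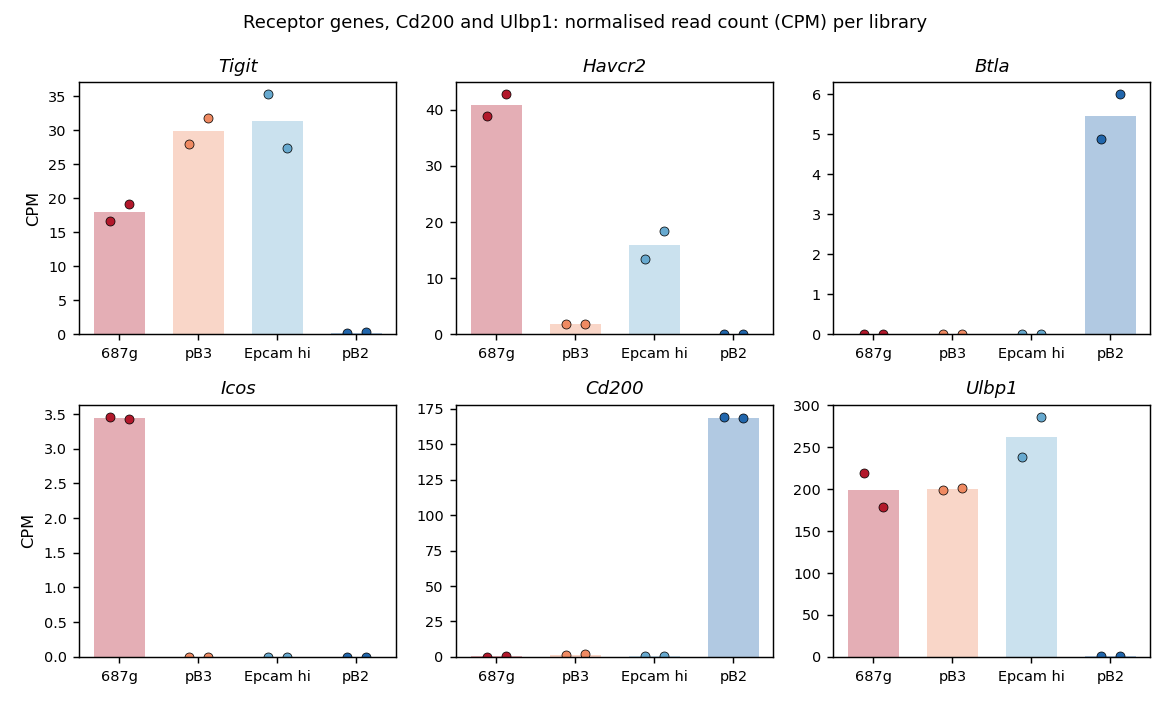
Normalised read count (CPM, vertical axes from 0, a separate scale for each gene) of the receptor genes Tigit, Havcr2, Btla and Icos and of the ligand genes Cd200 and Ulbp1 in the lines 687g, pB3, Epcam hi and pB2; points are libraries and bars their mean. Tigit and Ulbp1 are near 0 only in pB2, Btla and Cd200 stand out only in pB2, and Icos was counted only in 687g.

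Other ligand genes were taken from lists that include no member. Counts of calls in this and the following lists stand beside 21.6% of all tested genes called higher and 23.2% lower in pB3 against pB2. In 687g against Epcam hi those shares were 18.4% and 18%. Of 17 further B7, butyrophilin and TNF family genes, 8 were tested; 1 was called higher and 2 lower in pB3 against pB2 (median log2 fold change -0.46, against 0.02 over all genes), and 2 higher and 3 lower in 687g against Epcam hi (median -0.41, against -0.03). In the fit of pB3 and pB2 alone, 5 of this list were called in that contrast. Tnfsf9, the costimulatory ligand 4-1BBL, was higher in pB3 than in pB2 (log2 fold change 2.26, edgeR adjusted p = 8.17e-05), and Btn1a1, a butyrophilin of milk fat, was lower in 687g than in Epcam hi (-4.95, adjusted p = 7.07e-07). Igsf11, a ligand of the inhibitory receptor VISTA, was higher in 687g than in Epcam hi (log2 fold change 1.90, edgeR adjusted p = 0.000388). That value was 2.68 without Epcam hi replicate 2 and 1.43 without Epcam hi replicate 1.

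Of 13 other inhibitory ligand genes 11 were tested, and 4 were called higher and 6 lower in pB3 against pB2, and 5 higher and 3 lower in 687g against Epcam hi. Over all tested genes, 44.8% were called either way in the first of these contrasts and 36.4% in the second. Cd200, whose product engages an inhibitory receptor on myeloid cells, had 0.223 and 0.470 CPM in 687g, 1.01 and 1.75 CPM in pB3, 0.352 and 0.328 CPM in Epcam hi, and 169.4 and 168.3 CPM in pB2. The Cd200 level of pB2 was above every other library (pB3 against pB2 log2 fold change -6.92 ± 0.28, edgeR adjusted p = 4.13e-10). Ceacam1, reported as a ligand of TIM-3, had 2 reads in pB3 against 247 in pB2, so that pB2 was 115.7-fold higher than pB3 with a counting interval of 31.7 to 960.7. Cdh1, which encodes E-cadherin, a ligand of the receptor KLRG1, and Nectin4, a nectin whose human form binds TIGIT, were both lower in 687g than in Epcam hi (log2 fold changes -8.49 and -7.72, edgeR adjusted p = 3.18e-10 and 1.67e-09). Without 687g replicate 1 the Cdh1 value was -9.35. Of the 5 NKG2D ligand genes, which mark stressed cells for natural killer cells, Ulbp1 had 219.6 and 178.2 CPM in 687g, 199.4 and 201.2 CPM in pB3, 239.0 and 286.4 CPM in Epcam hi, and 1.11 and 1.59 CPM in pB2 (pB3 against pB2 log2 fold change 7.18 ± 0.27, edgeR adjusted p = 2.45e-10). Raet1e was called higher in pB3 than in pB2 (log2 fold change 1.23) and in 687g than in Epcam hi (0.96), but it overlaps near-identical family members and its count is uncertain. In this list 2 genes were called higher and 1 lower in pB3 against pB2, and 2 higher and none lower in 687g against Epcam hi, where most alternatives called 1.

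Genes known to act upstream of Cd274 were taken as lists as well. Their counts stand beside 44.8% of all tested genes called either way in pB3 against pB2 and 36.4% in 687g against Epcam hi. Of 16 interferon gamma and JAK-STAT genes, all tested, 5 were called higher and 5 lower in pB3 against pB2 (median log2 fold change 0.29, against 0.02 over all genes; 6 calls without pB3 replicate 2), and 4 higher and 2 lower in 687g against Epcam hi (median -0.01, against -0.03). Jak2, a kinase of the interferon gamma receptor, was higher in pB3 than in pB2 (log2 fold change 3.26 ± 0.20, edgeR adjusted p = 1.6e-08) and in 687g than in Epcam hi (2.29 ± 0.19, adjusted p = 4.37e-07). Irf1, a transcription factor of that path, ranged from 26.4 to 58.5 CPM over all libraries and was not called in pB3 against pB2 (log2 fold change 0.52 ± 0.20, edgeR adjusted p = 0.0524) or in 687g against Epcam hi (0.33 ± 0.21, adjusted p = 0.23). The pB3 against pB2 difference of Irf1 was called in 5 of 16 alternatives (range of adjusted p 0.00271 to 0.309). They were the fit of those lines alone (0.00271) and the fits without any 1 library of Epcam hi or 687g (0.031 to 0.0436). Nlrc5, the activator of MHC class I genes, was lower in 687g than in Epcam hi (log2 fold change -5.00 ± 0.26, edgeR adjusted p = 4.75e-09).

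Of 11 genes of NF-kB, AP-1, Myc and Hif1a, all tested, 6 were called higher and 1 lower in pB3 against pB2 (median log2 fold change 0.83, against 0.02 over all genes), and 2 higher and 4 lower in 687g against Epcam hi (median -0.21, against -0.03). The share of all tested genes called either way was 44.8% and 36.4% in these contrasts. Tnfaip3, an NF-kB target that feeds back on it, had 14.9 and 25.1 CPM in 687g, 53.9 and 51.8 CPM in pB3, 108.3 and 126.9 CPM in Epcam hi, and 2.00 and 3.18 CPM in pB2. Its lines stood in the order of Cd274, without overlap (pB3 against pB2 log2 fold change 4.32 ± 0.30, edgeR adjusted p = 4.64e-08; 687g against Epcam hi -2.56 ± 0.25, adjusted p = 2.48e-06). Fosl1, an AP-1 subunit, had 43.4 and 37.5 CPM in 687g, 67.6 and 72.1 CPM in pB3, 42.3 and 51.0 CPM in Epcam hi, and 0.0741 and 0.159 CPM in pB2. Hif1a, the oxygen-regulated factor, was higher in 687g than in Epcam hi (log2 fold change 1.61, edgeR adjusted p = 3.32e-06).

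Of 14 genes that act on the PD-L1 protein, all tested, 2 were called higher and none lower in pB3 against pB2, and 1 higher and 2 lower in 687g against Epcam hi. The share of all tested genes called either way was 44.8% and 36.4% in these contrasts. The count of that list moved with the fit, to 6 calls when pB3 and pB2 were fitted alone and to 1 when any pB3 or pB2 library was left out, and in 687g against Epcam hi to 5 without 687g replicate 2. Spop, an adaptor of PD-L1 breakdown, was higher in pB3 than in pB2 (log2 fold change 1.26, edgeR adjusted p = 3.1e-05), and Stt3a, an enzyme of its glycosylation, was 0.56 higher (adjusted p = 0.0144). The Stt3a call was lost when any pB3 or pB2 library was left out and with total counts in place of TMM factors (0.36, adjusted p = 0.0855; range over the alternatives 0.000142 to 0.131). Cmtm6, which protects PD-L1 from breakdown, was lower in 687g than in Epcam hi (log2 fold change -0.90 ± 0.17, edgeR adjusted p = 0.000824), and Adam10, a protease that can shed it, was higher (2.18, adjusted p = 6.19e-06).

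All 4 further genes of the CD47 axis were tested, and 3 were called higher and none lower in pB3 against pB2, and 2 higher and 1 lower in 687g against Epcam hi. The share of all tested genes called either way was 44.8% and 36.4% in these contrasts. Thbs1, which encodes the CD47 ligand thrombospondin-1, was higher in pB3 than in pB2 (log2 fold change 2.08 ± 0.30, edgeR adjusted p = 5.51e-05) and in 687g than in Epcam hi (2.06 ± 0.29, adjusted p = 8.36e-05, and 1.41 without 687g replicate 1). Lrp1, the phagocyte receptor for calreticulin, had 639.0 and 320.2 CPM in 687g, 752.4 and 791.3 CPM in pB3, 46.6 and 45.4 CPM in Epcam hi, and 11.0 and 15.5 CPM in pB2, and so was high in the same lines as Cd47. Its log2 fold change was 5.85 ± 0.33 in pB3 against pB2 (edgeR adjusted p = 6.5e-09) and 3.38 ± 0.29 in 687g against Epcam hi (adjusted p = 6.06e-07).

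**Figure D5:**
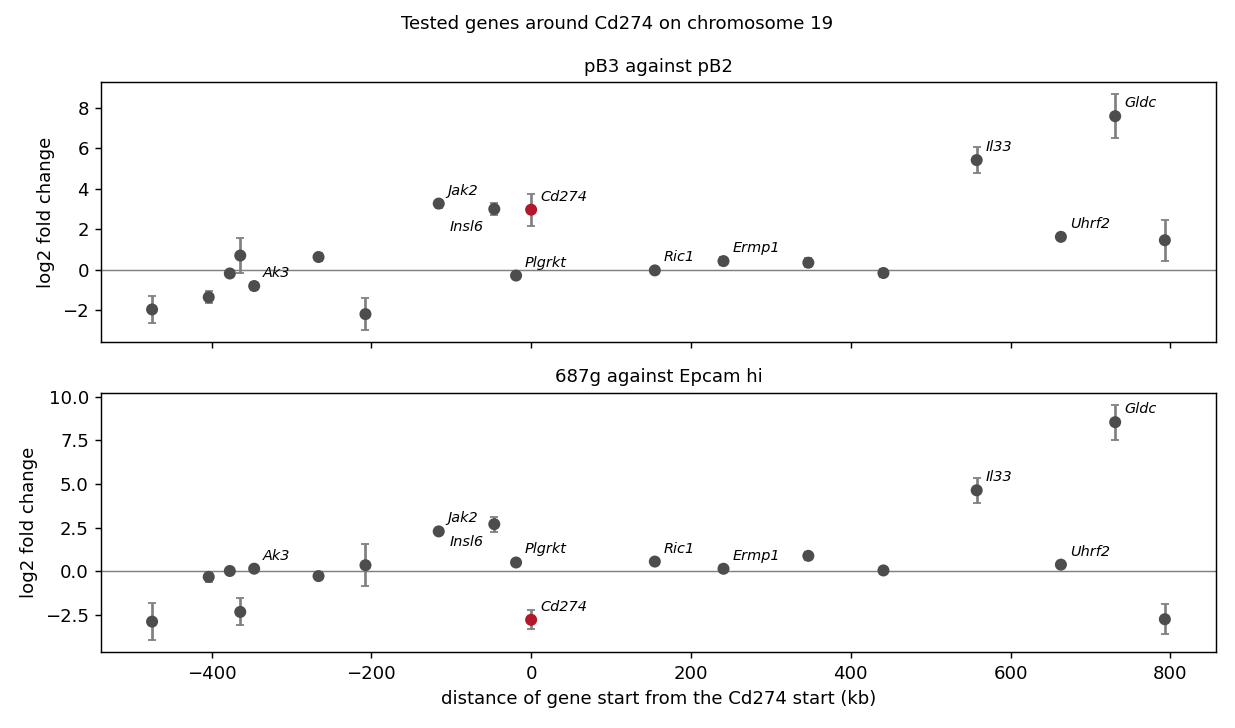
Log2 fold change (vertical axes, bars are SE) of tested genes around Cd274 on chromosome 19 by distance of their starts from the Cd274 start (kb, horizontal axis), for pB3 against pB2 and for 687g against Epcam hi. Jak2 and Insl6 lie above 0 in both panels, Plgrkt and Ric1 lie near 0 in pB3 against pB2 and at 0.50 and 0.56 in 687g against Epcam hi, and Cd274 (red) lies above 0 in pB3 against pB2 and below 0 in 687g against Epcam hi.

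The chromosomal surroundings of each tested member were described by the 10 nearest tested genes on each side, since cell lines can differ in copy number. Their spans can be wide, with gene starts from 45729725 to 55966275 around Cd47 and from 37011786 to 43648867 around Cd80. Over all tested genes, 21.6% were called higher and 23.2% lower in pB3 against pB2. In 687g against Epcam hi these shares were 18.4% and 18%. Around Cd274 the median log2 fold change of 20 neighbours was 0.52 in pB3 against pB2 with 8 called higher and 4 lower, and 0.30 in 687g against Epcam hi with 8 higher and 2 lower. Cd274 itself was at -2.78 in the second contrast. Jak2, whose start lies at -115.6 kb from that of Cd274, was higher in both pairs. Plgrkt, at -18.9 kb, had -0.30 in pB3 against pB2 (edgeR adjusted p = 0.213) and 0.50 in 687g against Epcam hi (adjusted p = 0.0456), where Cd274 was lower. Around Pvr the neighbours had a median of -0.14 in pB3 against pB2, with 2 called higher and 5 lower, beside 3.16 for Pvr. In 687g against Epcam hi their median was -0.60, with none called higher and 8 lower, beside -1.26 for Pvr. Pvr and Nectin2 each count among the neighbours of the other. Around Nectin2, whose surroundings overlap those of Pvr, the median was -0.14 in pB3 against pB2 beside 1.30 for Nectin2. There 9 of 20 neighbours were called lower and none higher in 687g against Epcam hi, with a median of -0.80 beside -1.49 for Nectin2. Around Cd276, 9 neighbours were called higher and none lower in pB3 against pB2, with a median of 0.91 beside -0.69 for Cd276. Their median was -0.03 in 687g against Epcam hi beside -0.37. Around Cd47 the median was 0.55 in pB3 against pB2 and 0.09 in 687g against Epcam hi, beside 1.63 and 1.96 for Cd47. Its neighbours had 7 called higher and 1 lower in the first contrast, and 7 higher and 3 lower in the second. Around Cd80 the median was 0.01 in pB3 against pB2, with 5 called higher and 2 lower. In 687g against Epcam hi it was 0.10 with 8 higher and 2 lower, beside 1.08 for Cd80. Around Lgals9 the median was -0.07 and -0.17 in those contrasts, beside -2.35 and 0.08 for Lgals9. The part of copy number in these levels was not tested.

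Across the 8 libraries, which share their lines in pairs, the log2 levels of Cd274 correlated with those of Pvr at r = 0.924 and of Nectin2 at r = 0.857, and Pvr with Nectin2 at r = 0.789. Lgals9 ran against Pvr at r = -0.887 and against Cd80 at r = -0.732, and Cd47 had no r beyond 0.569 in size with another tested member. Among 10288 candidate genes, the patterns most like that of Cd274 were those of Unc13d (r = 0.992) and Tnfrsf10b (r = 0.985), and most like Pvr were Tmem181a (0.996) and Mirt1 (0.994). For Nectin2 they were Scrn1 (r = 0.996) and Tstd3 (0.992), and for Cd47 Cmtm3 (0.995) and B4galt6 (0.993). For Lgals9 they were Cyth1 (r = 0.983) and Mfn1 (0.983), for Cd276 Gcc1 (0.964) and Cpeb2 (0.959), and for Cd80 A630095E13Rik (0.991) and Spag9 (0.985). With 4 lines such values are a description of shared order: 231 genes passed r = 0.95 with Pvr, 91 with Cd47, 87 with Cd274 and 6 with Cd276.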

How the data were processed

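The members and gene lists were chosen with earlier results of these data known. Total RNA was extracted with an RNeasy kit and libraries were made with a KAPA mRNA kit, per the labels' protocols. Single-end reads were aligned with STAR 2.6.1a to GRCm38 (mm10) with an Ensembl annotation and counted by gene with featureCounts in its reverse-stranded setting, per the submitters' processing notes; the featureCounts version and the handling of multi-mapping reads are not given in the sources used here. Each library came as a deposited file of raw counts, whole numbers of reads for 53379 genes, with no further normalization by the authors. Symbols, coordinates and exon lengths came from GENCODE M21 on the same build, and promoter windows from RefSeq (GRCm38.p6).

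The tests used edgeR 4.0.16 (R 4.3.3): filterByExpr by line (minimum count 10, 15890 genes kept), TMM factors, 1 quasi-likelihood fit to the 8 libraries in which each line has its own coefficient, two-sided F tests and Benjamini-Hochberg adjustment over all genes tested, with calls at an adjusted p under 0.05. All lines share 1 fit because 2 libraries per line leave 1 degree of freedom per line. The joint fit has 4 residual degrees of freedom. Its estimate of the spread of a gene is shared by all lines, also by Epcam hi, whose libraries differed most. The SE of a log2 fold change was taken as its absolute size over the square root of the F statistic. The 95% intervals of fitted differences use that SE and the degrees of freedom of the fit. Where a line has few or no reads, the fitted value and its SE depend on the prior count. CPM values use TMM-scaled totals. Depth ranged from 12442730 to 19149916 counts, so 3 counts in 1 library correspond to 0.159 to 0.222 CPM on TMM-scaled totals. Folds against a line with no read use a floor of 3 counts over both its libraries. They take the count of the other line as observed, without its counting error. Lines with 1 to 3 reads are given a ratio with an exact 95% interval. Scripts were tested on simulated data.

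Named genes were the members, in each within-model contrast the 2 called genes of each list with the largest fold among those whose higher line averaged 5 CPM or more, Jak2, Irf1 and 1 further gene that is not reported here, and for each tested member the 2 genes most correlated with it in log2 CPM (prior count 2) among genes of at least 10 CPM. Other genes were named after their values were seen. Alternatives were total counts or RLE size factors, DESeq2 1.42.0, limma-voom (limma 3.58.1), no filter and a stricter filter on low counts, a replicate block, a fit of only the 2 lines compared, and leaving out each library.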

Additional observations from a re-analysis of the deposited data

Results flagged for a closer look

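For 22 named genes the difference between the pairs of lines of the same mouse model was itself tested and called (687g against Epcam hi minus pB3 against pB2, log2, edgeR quasi-likelihood test of the interaction). Over all tested genes 37.7% were called. Most named genes outside the members were picked for a large fold in either pair, so their calls here follow in part from that choice. Among the members it was -5.74 for Cd274 (adjusted p = 0.000268), -4.42 for Pvr (1.36e-07), -2.79 for Nectin2 (1.56e-06), -4.36 for Cd80 (0.0439) and 2.42 for Lgals9 (0.00243). Pvr, Nectin2 and Cd274 had more message in pB3 than in pB2 but less in 687g than in Epcam hi.

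Among other ligands and receptors the difference was -7.58 for Ulbp1, -7.68 for Tigit, -6.89 for Cdh1, -5.98 for Btn1a1, -5.56 for Nectin4, -4.3 for Havcr2, -3.38 for Tnfsf9, 6.91 for Cd200 and 12 for Ceacam1. The fitted sizes of Havcr2 and Ceacam1 depend on lines with 1 to 3 reads. Among genes that act on transcription it was -9.26 for Fosl1, -7.79 for Nlrc5, -6.88 for Tnfaip3, -0.973 for Jak2 and 1.29 for Hif1a. Among genes that act on the PD-L1 protein or on the CD47 axis it was -2.47 for Lrp1, -0.881 for Spop and 1.88 for Adam10. Jak2 and Lrp1 were higher in the first line of both pairs, by unequal amounts. Adjusted p-values in this paragraph ranged from 6.4e-10 for Ulbp1 to 0.00941 for Jak2.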

How the results depend on the processing

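Of 385 recomputed log2 fold changes of tested members under other scalings, tests, filters or fits, 375 kept their direction and side of the threshold, 7 lost their call and 3 changed sign; of 392 without 1 library, 361 kept both, 24 lost their call, 1 gained it and 6 changed sign. The changes of sign were in uncalled differences. With total counts they were Cd276 (-0.062) and Nectin2 (-0.0612) in 687g against pB2 and Lgals9 in 687g against Epcam hi (-0.0531). Over the libraries left out, the values ran from -0.10 to 0.40 for Cd276 in 687g against pB2, from -0.59 to 0.80 for Lgals9 in 687g against Epcam hi, from -0.21 to 0.90 for Lgals9 in 687g against pB3, from -0.87 to 0.34 for Lgals9 in pB3 against Epcam hi, and from -0.58 to 0.0475 for Pvr in 687g against pB3. The cause was not tested.

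Leaving out 1 library gave 1 to 3 members called in 687g against pB3, the lowest without pB3 replicate 2, and 2416 to 4887 genes called in 687g against pB3 and 2893 to 5472 in pB3 against Epcam hi, the lowest without a pB3 library; a line left with 1 library was assumed to vary like the others. With total counts the log2 fold changes of all genes had medians of -0.17 in pB3 against pB2, -0.15 in 687g against Epcam hi and -0.20 in 687g against pB2, and values above are relative to TMM.

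Deviations of same-numbered libraries correlated at -0.0982 to 0.173 between lines, the highest for Epcam hi with pB2. No pairing by replicate number common to all lines was seen, and whether some libraries share a batch was not tested. With a replicate block 7 members were called in pB3 against pB2 and 4 in 687g against Epcam hi, the same numbers as without it, and 4 instead of 5 in the difference between the pairs, where Cd80 was not called (-4.36, adjusted p = 0.0625).

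Depth limits Cd274, Cd80, Pdcd1lg2, Vtcn1 and Tnfrsf14, whose differences rest on few reads.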
